A study of Mus musculus with 9 samples.

Results

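Genes of the hypoxia response and of glycolysis were followed in immune cells sorted from mouse melanomas. The set held 38 named genes of the 22136 in the gene table, listed for what they are known to do, with earlier results of these data known. All 38 were among the 13178 genes with enough counts to be tested. By role they fell into 3 genes of oxygen sensing, 2 secreted factors, 4 glucose and lactate transporters, 15 glycolytic enzymes, 2 enzymes of the PFKFB family, 5 mitochondrial genes, 2 collagen prolyl hydroxylases, 1 carbonic anhydrase and 4 other targets of the hypoxia factor HIF.

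The RNA came from CD45+ cells, CD45 being the leukocyte surface protein that Ptprc encodes. They were sorted from skin tumours of YUMM 2.1, a mouse melanoma cell line grown under the skin of C57BL/6J mice. The tumour-bearing mice had received IgG as control, an anti-B7-H3 antibody or an anti-PD1 antibody, and each group had 3 libraries. B7-H3 is a relative of the ligand PD-L1, and PD1 is a brake best known from T cells. Dosing began at a tumour size of 20 to 50 mm3 in all of them, and the labels used here give no dose, sampling time, age or sex. Nothing says that the libraries of a group came from separate animals, so every p-value measures the spread between these libraries, which may be technical. In bulk RNA of sorted cells, fewer cells of a type and less RNA per cell cannot be told apart.

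Cells sense oxygen through EGLN prolyl hydroxylases, which use it to mark the HIF-1 alpha protein for destruction by the VHL ubiquitin ligase. When oxygen is short the protein lasts, pairs with ARNT, binds short DNA elements and switches on genes for glucose uptake, glycolysis, lactate export, vessel growth and the removal of mitochondria. HIF-1 alpha is set mainly by how long the protein lasts, and in macrophages, neutrophils and activated T cells inflammatory signals can also raise it with oxygen present.

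Levels are given as CPM, each library's counts scaled to a common total with TMM factors, with replicates in the order 1, 2, 3. Library totals ran from 14487012 to 31533106 estimated counts, and a count of 3 was worth 0.0954 to 0.208 CPM. IgG 2 stood apart on the first principal component of all tested genes and anti-PD1 3 on the second, with 1896 and 1248 tested genes at 0 against 224 to 822 elsewhere. Ptprc lay between 1718 and 2913 CPM in every library. The summed level of 8 T cell markers was 4798 to 6362 CPM in IgG, 3723 to 5452 in anti-B7-H3 and 3759 to 4936 in anti-PD1. That of 6 B cell markers was 471 CPM in anti-B7-H3 1 and 25.9 to 137 elsewhere. The summed level of 10 macrophage markers was 120 to 299.6 CPM in IgG, 1675 to 2613 in anti-B7-H3 and 1202 to 1811 in anti-PD1. Melanoma markers were near the floor, at 1.84 to 16.3 CPM summed over 8 genes, with the pigment enzyme gene Dct at 0 in all 9 libraries.

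After anti-PD1, 5 of the 38 genes were higher than in IgG and none was lower: Vegfa, Slc16a3, Egln3, Slc2a1 and Bnip3. After anti-B7-H3, Vegfa alone was higher and none was lower. A gene was called at a Benjamini-Hochberg adjusted p of at most 0.05 in edgeR's quasi-likelihood test over all tested genes, which called 1.74% of them for anti-PD1 and 0.85% for anti-B7-H3. DESeq2 called 8 of the 38 after anti-PD1, beside 4.99% of the genes it gave an adjusted p, and 2 after anti-B7-H3, beside 3.15%, all higher. With 1 library left out, edgeR called 2 to 6 after anti-PD1: 2 without anti-PD1 1, and 3 without IgG 2, IgG 3, anti-B7-H3 2, anti-PD1 2 or anti-PD1 3. Over all tested genes these fits called 113 without anti-PD1 1 up to 262 without IgG 2, beside 229 with all 9 libraries. For the genes that did not pass, the order of the libraries adds a description. In 18 of the 38, all 3 anti-PD1 libraries lay above all 3 IgG libraries, an arrangement found in 9.99% of all tested genes. The reverse arrangement held for 0 of the 38 against 6.52% of all tested genes. For anti-B7-H3 the counts were 7 higher against 9.96% of all tested genes, and 1 lower against 5.49%. The 7 became 19 without anti-B7-H3 1, beside 16.7% of all tested genes, and 11 without IgG 1, beside 19.0%.

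The median log2 fold change of the 38 was 0.40 for anti-PD1, beside -0.04 over all tested genes, and 0.21 for anti-B7-H3, beside 0.02. These medians describe the list and were not tested. The plot of fold changes by role shows the called genes and the wide errors of the genes at 0 in some libraries.

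**Figure D1:**
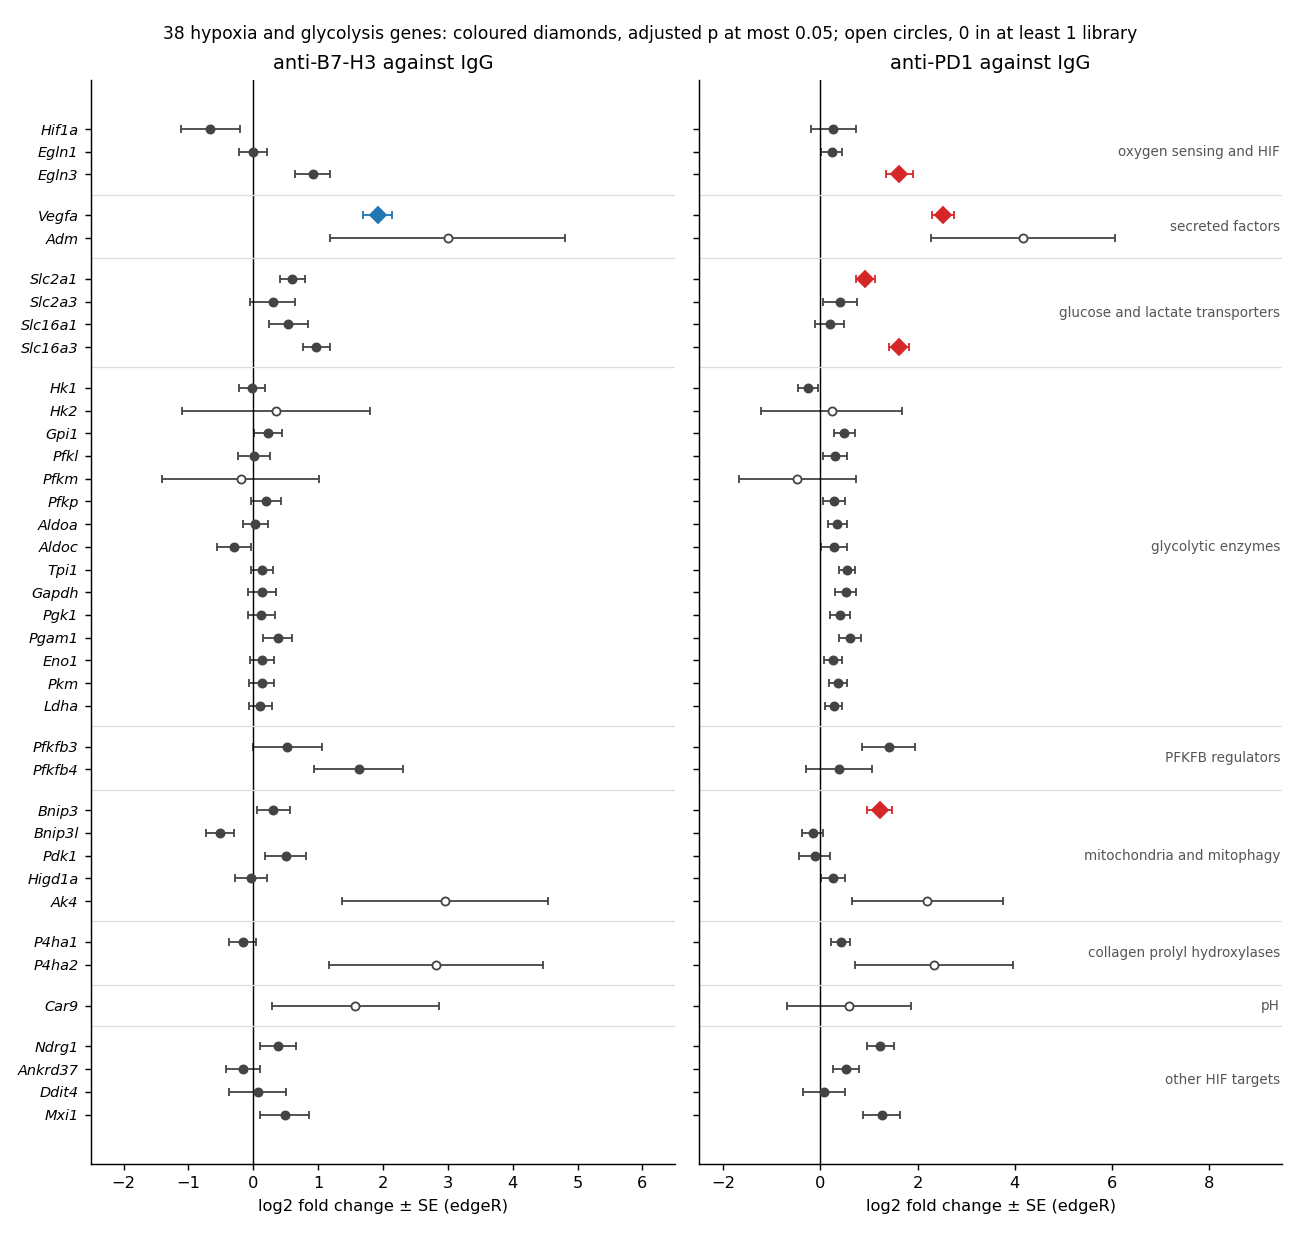
The log2 fold change of each of the 38 genes against IgG (horizontal axis, bars 1 SE from edgeR) is drawn for anti-B7-H3 on the left and anti-PD1 on the right, with genes grouped by role. Coloured diamonds mark adjusted p at most 0.05, 1 gene on the left and 5 on the right, and open circles mark genes at 0 in at least 1 library.

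The stretches before the starts of 4 of the called genes are printed to show the DNA letters that HIF is known to bind. The cores searched were ACGTG and GCGTG, on both strands, and CACGTG was counted once on each strand. In the 250 bases before each start in the RefSeq promoter table of GRCm38.p6, 45 of 54 promoters of the 38 genes held at least 1 core, 83.3% of them. The share was 38.6% of 32851 promoters in the table and 54.3% of the 12876 that belong to tested genes. Promoters of the 38 genes held 16.3 CG pairs on average, and those of tested genes 15.7. Of the 38 genes, 35 had a promoter in the table and 33 had a core in at least 1; the others were Slc2a3, Bnip3l and Ndrg1, with no promoter matched, and Gpi1 and Tpi1. Below, the core letters of either strand are in capitals, and the 5 bases next to the start are not shown.
Egln3, chr12:54203880-54204124, minus strand: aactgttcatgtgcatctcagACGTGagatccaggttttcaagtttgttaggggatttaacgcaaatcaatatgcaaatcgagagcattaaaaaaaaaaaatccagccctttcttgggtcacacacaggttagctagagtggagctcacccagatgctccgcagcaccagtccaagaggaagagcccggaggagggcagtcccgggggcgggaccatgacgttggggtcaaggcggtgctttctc
Slc2a1, chr4:119108495-119108739, plus strand: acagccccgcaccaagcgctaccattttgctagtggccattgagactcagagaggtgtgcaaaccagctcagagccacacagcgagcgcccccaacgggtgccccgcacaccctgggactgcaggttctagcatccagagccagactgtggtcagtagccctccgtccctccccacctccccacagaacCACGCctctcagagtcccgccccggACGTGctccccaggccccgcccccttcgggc
Slc16a3, chr11:120948817-120949061, plus strand: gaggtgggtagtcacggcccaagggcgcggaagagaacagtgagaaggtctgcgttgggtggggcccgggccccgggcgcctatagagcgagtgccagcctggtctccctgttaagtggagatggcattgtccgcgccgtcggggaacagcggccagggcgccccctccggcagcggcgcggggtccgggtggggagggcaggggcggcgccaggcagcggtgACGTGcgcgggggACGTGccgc
Bnip3, chr7:138909512-138909756, minus strand: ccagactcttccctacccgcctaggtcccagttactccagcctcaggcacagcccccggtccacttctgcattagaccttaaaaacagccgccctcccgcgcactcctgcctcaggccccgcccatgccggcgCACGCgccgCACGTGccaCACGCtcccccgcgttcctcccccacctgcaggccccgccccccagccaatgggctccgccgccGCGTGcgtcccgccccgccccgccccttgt
Bnip3 held 5 cores, Slc2a1 and Slc16a3 held 2 each and Egln3 held 1. The starts are those of RefSeq, and the Slc16a3 window lies inside the gene as GENCODE places it, chr11:120948480-120960868. The windows of Slc2a1 and Bnip3 reach slightly into the GENCODE gene. For Vegfa, the window before the outer start, chr17:46032378-46032627 on the minus strand, held 0, and that before a second start inside the gene, chr17:46025164-46025413, held 2. A match is a string of letters and not a measured binding site, and a window without one says nothing about HIF further away.

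Among the genes of oxygen sensing, Egln3 rose after anti-PD1 and the HIF gene itself did not pass the test. Egln3 encodes PHD3, a prolyl hydroxylase that marks HIF alpha subunits and is itself a HIF target. Egln3 (chr12:54178981-54203860) measured 13.3, 17.5 and 12.7 CPM in IgG, 21.6, 30.0 and 30.2 in anti-B7-H3 and 51.2, 37.8 and 44.9 in anti-PD1. The 3 groups did not overlap, with anti-PD1 highest and IgG lowest. Against IgG the log2 fold change was 1.62 ± 0.27 (SE, n = 3) for anti-PD1 (edgeR adjusted p = 0.0124) and 0.91 ± 0.27 for anti-B7-H3 (edgeR adjusted p = 0.257). The call was lost without anti-PD1 1, the library with the most Egln3, where the edgeR adjusted p was 0.0725, and among the other settings only once more, with adjusted p = 0.0526 when the replicate number entered as a block. On the deposited TPM values anti-B7-H3 1 fell within the range of IgG, and anti-PD1 still lay above both other groups.

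Hif1a, the gene of the oxygen-regulated HIF subunit, measured 736, 860 and 288 CPM in IgG, 185, 483 and 524 in anti-B7-H3 and 741, 555 and 971 in anti-PD1. IgG 3 and anti-B7-H3 1 were far below the other libraries of their groups, and the treated groups each overlapped IgG. The log2 fold change was 0.27 ± 0.46 for anti-PD1 and -0.66 ± 0.46 for anti-B7-H3 (edgeR adjusted p = 0.895 and 0.779). Egln1, which encodes PHD2, the main oxygen sensor of the pathway, stayed between 57.3 and 98.1 CPM across all libraries.

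Within the EGLN family the balance differed between groups. By TPM, which corrects for transcript length and so allows genes to be compared, Egln3 made up 18.0, 19.1 and 14.4% of the summed level of Egln1, Egln2 and Egln3 in IgG. It made up 28.7, 29.5 and 31.97% in anti-B7-H3 and 42.4, 34.9 and 44.0% in anti-PD1. The groups did not overlap, and a share within a family does not move with the scaling of a library. An exact permutation test of 3 against 3 libraries cannot give a p below 0.1, so these shares are given as a description.

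**Figure D2:**
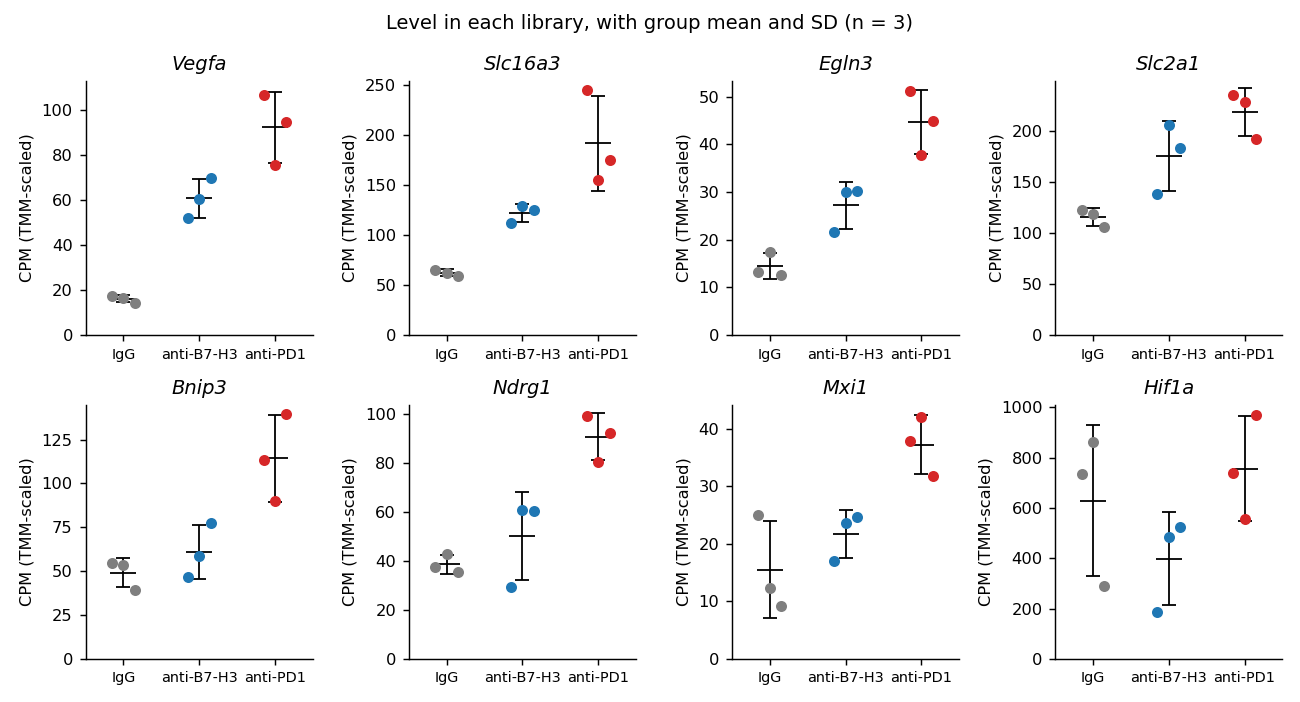
Each panel gives the CPM of 1 gene (vertical axis, starting at 0) in every library as a point, with the group mean and SD (n = 3) in black. Vegfa, Slc16a3 and Egln3 step up from IgG to anti-B7-H3 to anti-PD1 with no overlap, while Bnip3, Ndrg1 and Mxi1 set anti-PD1 apart and Hif1a overlaps between IgG and each treated group.

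Vegfa, which encodes the growth factor that makes vessels sprout, was higher in both treated groups. Vegfa (chr17:46016993-46032369) measured 17.5, 16.3 and 14.4 CPM in IgG, 52.1, 60.3 and 69.6 in anti-B7-H3 and 107, 75.3 and 94.6 in anti-PD1. The IgG libraries lay close together, and the lowest treated library was above the highest of them. Against IgG, Vegfa was 5.74-fold higher after anti-PD1 (log2 2.52 ± 0.23, edgeR adjusted p = 0.000465) and 3.78-fold higher after anti-B7-H3 (log2 1.92 ± 0.22, edgeR adjusted p = 0.00357). Vegfa kept both calls under all 18 other settings. On TPM both treated groups again lay above IgG, but they overlapped each other. Adm, the gene of adrenomedullin, a vessel-dilating peptide and HIF target, measured 1.05, 0 and 0 CPM in IgG, 0, 6.10 and 2.47 in anti-B7-H3 and 5.87, 7.54 and 5.89 in anti-PD1. All anti-PD1 libraries were above IgG, but at this depth the adjusted p of edgeR was 0.462.

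Of the transporters, the lactate exporter Slc16a3 and the glucose importer Slc2a1 rose after anti-PD1, while their partners Slc16a1 and Slc2a3 did not pass the test. Slc16a3, the gene of MCT4 (chr11:120948480-120960868), measured 65.5, 62.2 and 58.7 CPM in IgG, 112, 129 and 125 in anti-B7-H3 and 244, 155 and 175 in anti-PD1. As with Egln3, the groups formed 3 steps without overlap. Slc16a3 was 3.08-fold higher after anti-PD1 (log2 1.62 ± 0.20, edgeR adjusted p = 0.00294), a call kept under all 18 other settings. After anti-B7-H3 the log2 fold change was 0.97 ± 0.20, with an adjusted p just above the threshold (edgeR adjusted p = 0.0588). That difference passed under 4 other settings, with adjusted p between 0.000937 for DESeq2 and 0.0485 for upper-quartile factors.

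Slc2a1, the gene of GLUT1 (chr4:119108711-119137983), measured 122, 119 and 106 CPM in IgG, 138, 206 and 183 in anti-B7-H3 and 236, 229 and 192 in anti-PD1. Every treated library was above every IgG library in CPM, while on TPM anti-B7-H3 1 lay within the range of IgG. Slc2a1 was 1.89-fold higher after anti-PD1 (log2 0.92 ± 0.19, edgeR adjusted p = 0.0403), and its log2 fold change after anti-B7-H3 was 0.60 ± 0.19 (edgeR adjusted p = 0.333). The anti-PD1 call was close to the threshold and was kept in 1 of the 9 fits that left out a library, that with anti-B7-H3 1 removed (adjusted p 0.0305 to 0.172 over the 9).

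Slc2a3, the gene of the high-affinity glucose importer GLUT3, ranged from 34.0 to 103 CPM and overlapped between groups. Slc16a1, the gene of the lactate transporter MCT1, ranged from 21.6 to 53.3 CPM and also overlapped between IgG and each treated group. By TPM, Slc16a3 made up 58.2, 75.2 and 65.1% of the summed MCT1 and MCT4 genes in IgG, 71.8, 71.95 and 71.7% in anti-B7-H3 and 85.1, 83.6 and 81.2% in anti-PD1. The anti-PD1 libraries were thus above all others, and the anti-B7-H3 libraries lay within the range of IgG. The stacked bars by family show these shares beside those of Egln3, Bnip3 and the hexokinases.

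**Figure D3:**
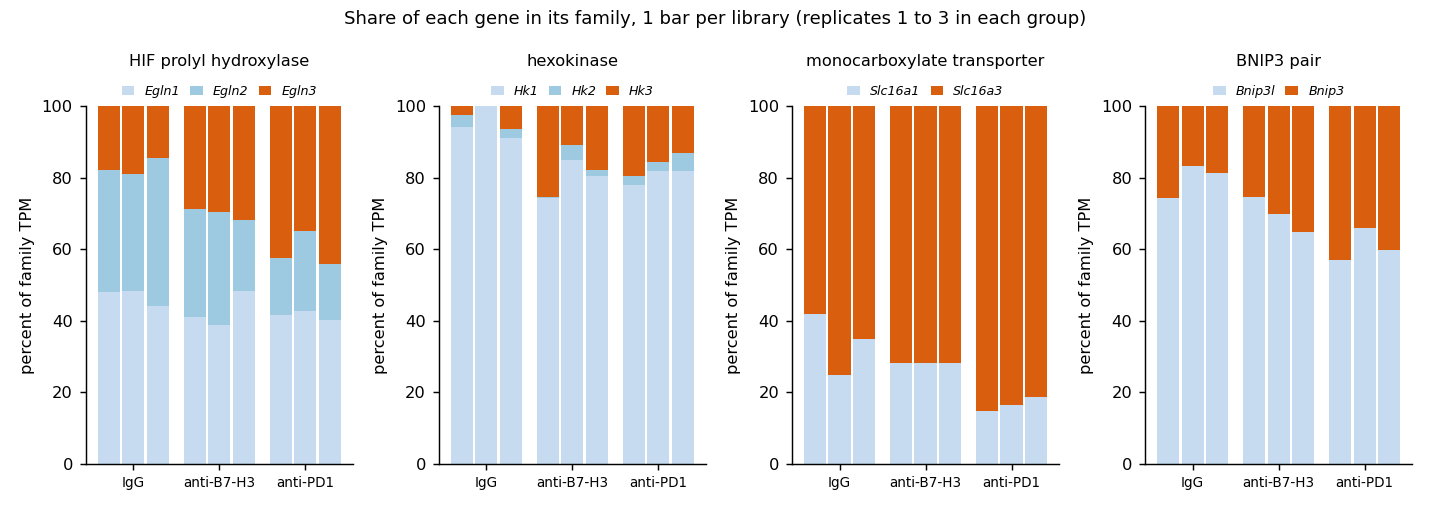
Each bar is 1 library, in replicate order within its group, and shows the percent of the summed TPM of a gene family (vertical axis) that each gene contributes. The orange share grows from IgG to anti-PD1 for Egln3, and anti-PD1 lies above all other libraries for Slc16a3, which made up 81.2 to 85.1% there.

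None of the 15 glycolytic enzymes passed edgeR's test in any comparison. At an unadjusted p under 0.05 edgeR counted 4 of them higher after anti-PD1, beside 10.9% of all tested genes in either direction, and 0 after anti-B7-H3, beside 8.81%. DESeq2 called 1 after anti-PD1 and 0 after anti-B7-H3. As a sum, the 15 genes took 15351, 13828 and 16366 CPM in IgG, 14223, 18397 and 16963 in anti-B7-H3 and 21765, 18145 and 19124 in anti-PD1. The means were 15182 ± 1278 (SD, n = 3), 16528 ± 2121 and 19678 ± 1872 CPM. In CPM anti-PD1 did not overlap IgG, and anti-B7-H3 did, through anti-B7-H3 1 alone. On TPM the sums of anti-PD1 and IgG overlapped, with means of 10322 in IgG, 10217 in anti-B7-H3 and 12103 in anti-PD1. In 8 of the 15, all anti-PD1 libraries were above all IgG libraries, beside 9.99% of all tested genes. In 0 of the 15 all anti-B7-H3 libraries were, beside 9.96%. These orders are in CPM, and on TPM anti-PD1 overlapped IgG for Pgk1, Pkm and Ldha. The median log2 fold change of the 15 was 0.29 for anti-PD1 and 0.13 for anti-B7-H3. The edgeR adjusted p ran from 0.196 to 0.976 for anti-PD1 and from 0.713 to 0.997 for anti-B7-H3.

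By TPM the most abundant enzymes over the 9 libraries were Gapdh at 2866, Eno1 at 2508, Pkm at 1547, Ldha at 1235 and Aldoa at 1122. These enzymes work from the splitting of the sugar onwards, on the stretch that ends in lactate. Hexokinase and phosphofructokinase, which commit glucose to the path, were much lower, with Hk1 at 49.0, Pfkp at 136 and Pfkl at 69.0 TPM.

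Gapdh, the dehydrogenase that makes NADH, measured 3183, 3246 and 4277 CPM in IgG, 3156, 4537 and 4098 in anti-B7-H3 and 5513, 4844 and 4978 in anti-PD1. Its log2 fold change after anti-PD1 was 0.52 ± 0.21 (edgeR adjusted p = 0.403), and this gene is often used as a constant reference. Tpi1, which interconverts the triose phosphates, measured 536, 443 and 496 CPM in IgG, 500.0, 567 and 548 in anti-B7-H3 and 756, 649 and 747 in anti-PD1. Its log2 fold change after anti-PD1 was 0.55 ± 0.17 (edgeR adjusted p = 0.196), the smallest adjusted p among the 15, and DESeq2 called it (adjusted p = 0.00544).

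Pgam1, the phosphoglycerate mutase, measured 203, 215 and 169 CPM in IgG, 185, 285 and 291 in anti-B7-H3 and 348, 303 and 245 in anti-PD1. Pgk1, the first ATP-making step, measured 453, 356 and 442 CPM in IgG, 359.7, 502 and 504 in anti-B7-H3 and 657, 491 and 511 in anti-PD1. Gpi1, which turns glucose phosphate into fructose phosphate, measured 698, 441 and 725 CPM in IgG, 711, 784 and 686 in anti-B7-H3 and 957, 848 and 819 in anti-PD1. In all of these genes anti-PD1 lay above IgG in CPM without overlap while anti-B7-H3 did overlap IgG. On TPM Pgk1 was 258 in IgG 1, above the 224 and 246 of anti-PD1 2 and 3. The log2 fold changes after anti-PD1 were 0.61 ± 0.22 for Pgam1, 0.41 ± 0.21 for Pgk1 and 0.49 ± 0.21 for Gpi1 (edgeR adjusted p from 0.319 to 0.522).

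Pkm, the pyruvate kinase gene, measured 2570, 2170 and 2266 CPM in IgG, 2181, 2772 and 2724 in anti-B7-H3 and 3362, 2664 and 2976 in anti-PD1. Aldoa, the aldolase, measured 1819, 1748 and 2188 CPM in IgG, 1662, 2208 and 2009 in anti-B7-H3 and 2638, 2476 and 2195 in anti-PD1. Ldha, which makes lactate from pyruvate, measured 1853, 1879 and 1904 CPM in IgG, 1779, 2265 and 2039 in anti-B7-H3 and 2542, 2025 and 2235 in anti-PD1. The margins in CPM were narrow: the lowest anti-PD1 library exceeded the highest IgG library by little in each. On TPM IgG 1 had 1990 for Pkm, above every anti-PD1 library, and 1297 for Ldha, above anti-PD1 2 at 1157. The log2 fold changes after anti-PD1 were 0.36 ± 0.19 for Pkm, 0.35 ± 0.19 for Aldoa and 0.27 ± 0.18 for Ldha (edgeR adjusted p from 0.544 to 0.669). Eno1, the enolase, overlapped between all groups at 2824, 2435 and 2928 CPM in IgG, 2865, 3242 and 2867 in anti-B7-H3 and 3622, 2791 and 3373 in anti-PD1.

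The other enzymes overlapped between IgG and each treated group. Hk1, the hexokinase of most tissues, lay between 175 and 278 CPM with a log2 fold change of -0.26 ± 0.20 after anti-PD1 (edgeR adjusted p = 0.732). Pfkl ranged from 195 to 380.2 CPM, Pfkp from 407 to 688 and Aldoc, the aldolase best known from brain, from 21.9 to 54.3, with all anti-B7-H3 libraries below all anti-PD1 libraries for Aldoc. Hk2, the inducible hexokinase and a HIF target, reached at most 14.5 CPM and was at 0 in IgG 2, and Pfkm, the muscle phosphofructokinase, reached at most 14.2 CPM and was at 0 in anti-PD1 3. By TPM, Hk1 made up 91.2% or more of the hexokinase genes in IgG, 74.3 to 85.0% in anti-B7-H3 and 77.9 to 81.9% in anti-PD1. The rest was mainly Hk3, a hexokinase of myeloid cells and no member of the set, at 0 to 6.33% in IgG, 10.8 to 25.4% in anti-B7-H3 and 13.3 to 19.7% in anti-PD1. This share moved with the macrophage markers given above, whose part in it was not tested.

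Several of these enzymes have similar gene copies in the mouse genome. Reads of copies that are absent from the mostly coding transcripts may be counted with these genes. Reads may also be split among copies that are present, so the levels are uncertain to that extent. Of the related genes in the table, Eno1b reached at most 2.52 CPM, Pgk2 4.75 and Gapdhs 2.15, while Eno3 reached 44.0 and Ldhb 46.4. These values do not cover copies that are absent from the table. A second gene model that carries the name Aldoa reached 1.20 CPM and was left out.

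**Figure D4:**
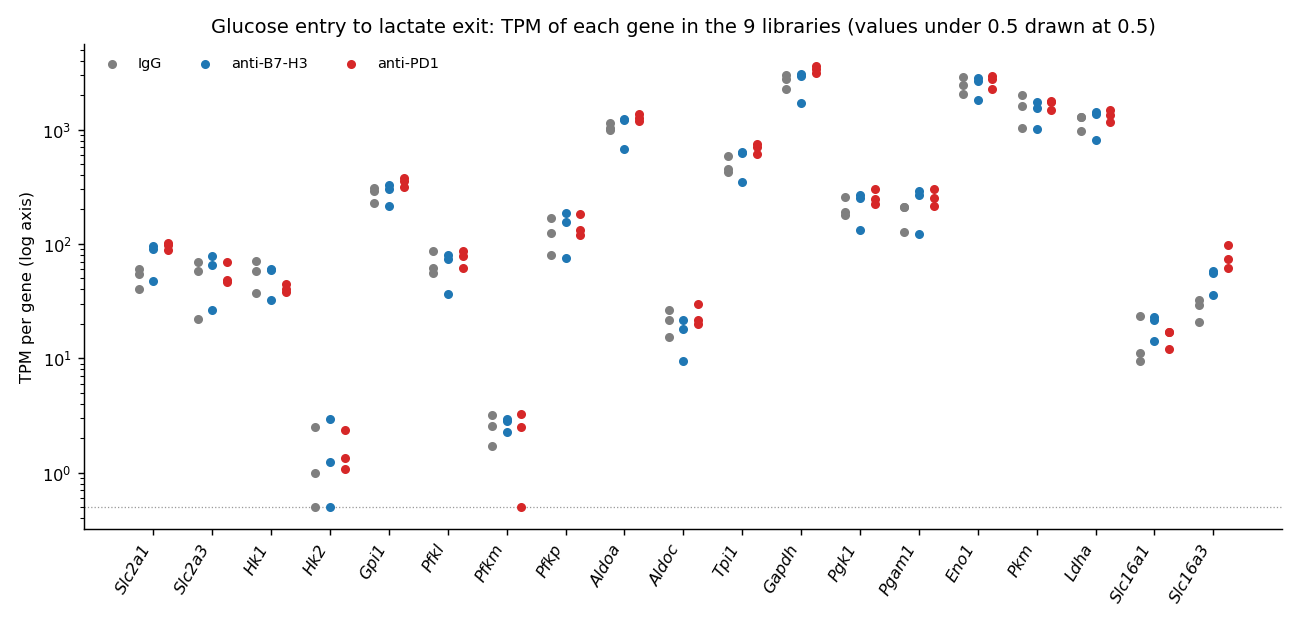
The TPM of each gene (vertical log axis) is plotted in the order of the path from glucose import to lactate export, with 1 point per library and values under 0.5 drawn at 0.5. Gapdh and Eno1 hold the highest points, with means of 2866 and 2508 TPM, and the 3 groups form separate steps at Slc16a3.

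The PFKFB enzymes set the level of a fructose bisphosphate that is not on the path itself but strongly activates phosphofructokinase, and both genes are HIF targets. Pfkfb3 measured 17.3, 2.79 and 6.64 CPM in IgG, 11.7, 14.4 and 12.5 in anti-B7-H3 and 20.3, 26.3 and 24.5 in anti-PD1. Pfkfb4 measured 2.56, 5.69 and 6.23 CPM in IgG, 21.9, 11.7 and 11.1 in anti-B7-H3 and 12.6, 4.22 and 2.05 in anti-PD1. The pair thus differed in order in CPM: anti-PD1 was above IgG for Pfkfb3 and anti-B7-H3 was above IgG for Pfkfb4. On TPM Pfkfb3 was 7.93 in IgG 1, above the 7.43 of anti-PD1 1. Neither passed the test, at a log2 fold change of 1.41 ± 0.54 for Pfkfb3 after anti-PD1 (edgeR adjusted p = 0.363) and 1.62 ± 0.69 for Pfkfb4 after anti-B7-H3 (edgeR adjusted p = 0.530). Without IgG 1, the IgG library with the most Pfkfb3, its log2 fold change after anti-PD1 was 2.36 and was called (edgeR adjusted p = 0.0432), and without IgG 2 and anti-PD1 3 it was 0.96 (edgeR adjusted p = 0.550).

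Bnip3, whose protein marks mitochondria for removal by autophagy, rose after anti-PD1, and its close relative Bnip3l did not. Bnip3 (chr7:138890836-138909519) measured 54.8, 53.2 and 39.4 CPM in IgG, 46.4, 58.9 and 77.2 in anti-B7-H3 and 113, 90.1 and 139.8 in anti-PD1. The anti-PD1 libraries stood above all others in CPM, and anti-B7-H3 overlapped IgG. On TPM anti-B7-H3 3, at 120.1, was above anti-PD1 2, at 114.8. Bnip3 was 2.33-fold higher after anti-PD1 (log2 1.22 ± 0.26, edgeR adjusted p = 0.0409), and its log2 fold change after anti-B7-H3 was 0.31 ± 0.25 (edgeR adjusted p = 0.836). The call was kept in 2 of the 9 fits that left out a library, those that dropped anti-B7-H3 1 or anti-B7-H3 3 (adjusted p 0.0406 to 0.155 over the 9).

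Bnip3l, also known as Nix and needed to clear mitochondria from maturing red cells, measured 195, 326 and 215 CPM in IgG, 167, 171 and 178 in anti-B7-H3 and 187, 216 and 257 in anti-PD1. Every anti-B7-H3 library was below every IgG library, the only gene of the 38 in that order in CPM (0 of the 38 on TPM), with a log2 fold change of -0.51 ± 0.22 that missed the threshold (edgeR adjusted p = 0.535). By TPM, Bnip3 made up 16.8 to 25.7% of the pair in IgG, 25.4 to 35.2% in anti-B7-H3 and 34.1 to 43.2% in anti-PD1. The summed level of 6 erythroid markers was 70.3, 7.49 and 435 CPM in IgG, 6.75 to 11.2 in anti-B7-H3 and 2.03 to 30.2 in anti-PD1. Within IgG the sum was lowest in IgG 2, the library with the most Bnip3l. The part of erythroid cells in the Bnip3l levels was not tested.

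Of the other mitochondrial genes, Pdk1, which shuts pyruvate out of the citric acid cycle, ranged from 32.2 to 101 CPM, and Higd1a, a small protein of the respiratory chain, from 58.7 to 116 CPM. Both overlapped between IgG and each treated group. Ak4, a mitochondrial adenylate kinase, stayed at or below 1.68 CPM, with every anti-B7-H3 library above IgG and no call (edgeR adjusted p = 0.676).

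The remaining HIF targets repeated the pattern of Bnip3 in part. Ndrg1, a stress-response gene that HIF and MYC regulate, measured 37.4, 43.0 and 35.4 CPM in IgG, 29.5, 60.9 and 60.5 in anti-B7-H3 and 99.4, 80.5 and 92.3 in anti-PD1. All anti-PD1 libraries were above all others. The log2 fold change after anti-PD1 was 1.23 ± 0.28 with an adjusted p just above the threshold (edgeR adjusted p = 0.0565), and 8 of 18 other settings called it (adjusted p 0.00164 to 0.209 over the 18).

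Mxi1, a repressor that opposes MYC, measured 25.1, 12.3 and 9.13 CPM in IgG, 16.9, 23.6 and 24.6 in anti-B7-H3 and 37.9, 42.0 and 31.7 in anti-PD1. Ankrd37, a small ankyrin-repeat protein whose gene is a HIF target, measured 21.7, 29.5 and 18.5 CPM in IgG, 18.0, 23.1 and 21.2 in anti-B7-H3 and 35.5, 31.5 and 32.7 in anti-PD1. In both genes anti-PD1 lay above all other libraries in CPM, without passing the test (log2 1.26 ± 0.38 and 0.52 ± 0.27, edgeR adjusted p = 0.181 and 0.528). On TPM Ankrd37 was 74.2 in IgG 2, above the 67.1 and 69.3 of anti-PD1 2 and 3. Mxi1 was called by DESeq2 (adjusted p = 0.0338) and, without IgG 1, by edgeR (log2 1.82, adjusted p = 0.0344), with adjusted p up to 0.470 over the other settings. Ddit4, an inhibitor of mTORC1 signalling, ranged from 26.9 to 89.9 CPM with no separation.

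P4ha1 and P4ha2 encode the catalytic subunits that hydroxylate proline in collagen. P4ha2 measured 2.51, 0 and 0 CPM in IgG, 5.64, 7.07 and 5.21 in anti-B7-H3 and 8.003, 0.592 and 4.18 in anti-PD1. Anti-B7-H3 did not overlap IgG, but with so few counts the adjusted p of edgeR was 0.706. P4ha1 ranged from 76.3 to 141 CPM. Car9, the surface carbonic anhydrase that is a common tissue marker of hypoxia, ranged from 0 in IgG 2 to 29.1 CPM in anti-B7-H3 2 and did not separate the groups.

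Set directly against each other, the treatments differed in none of the 38 genes by edgeR's adjusted p, which called 0 of 13178 genes, or 0.0% of all tested. At an unadjusted p under 0.05 edgeR counted 8 of the 38 and 425 of all tested genes, or 3.23%, and DESeq2 called 0 of the 38 and 15 in all, or 0.115%. The arrangement of the libraries was uneven in 1 direction: in 16 of the 38 all anti-B7-H3 libraries were below all anti-PD1 libraries, beside 6.4% of all tested genes. In 2 of the 38, Slc16a1 and Pdk1, they were above, beside 7.13% of all tested genes. The 16 were Hif1a, Egln3, Vegfa, Slc16a3, Gpi1, Aldoc, Tpi1, Gapdh, Pfkfb3, Bnip3, Bnip3l, Higd1a, P4ha1, Ndrg1, Ankrd37 and Mxi1. On the deposited TPM values 8 of the 38 were in this order, beside 3.53% of all tested genes. These values share the anti-PD1 libraries with the comparison against IgG, so the counts are not independent of it.

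For the called genes the log2 difference of anti-B7-H3 from anti-PD1, with an interval of 1.96 SE to each side, was -0.91 (-1.41 to -0.41) for Bnip3. It was -0.71 (-1.23 to -0.19) for Egln3 and -0.65 (-1.04 to -0.26) for Slc16a3. For Vegfa it was -0.60 (-1.03 to -0.18), and for Slc2a1 -0.32 (-0.69 to 0.06). The adjusted p was 1 for each in edgeR, and the intervals are not adjusted for the number of genes. Their multiplier is that of the normal distribution, which makes them narrower than edgeR's test allows. For Hif1a such an interval, -1.83 to -0.026, left out 0 at an unadjusted edgeR p of 0.071.

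Other genes of the pathway that are not among the 38 were counted in 3 lists. Among 30 tested further HIF targets, 3 rose after anti-PD1 and 0 fell, and 0 passed after anti-B7-H3. Plin2, which coats lipid droplets, rose by log2 1.53 ± 0.20 (edgeR adjusted p = 0.00382). Cxcr4, the receptor that guides leukocytes to CXCL12, rose by 1.34 ± 0.26 (edgeR adjusted p = 0.0271), and Bhlhe40, a repressor active in macrophages and T cells, by 1.32 ± 0.29 (edgeR adjusted p = 0.0498). In the list of HIF subunits and regulators 0 of 13 tested genes passed edgeR's test in either direction in any comparison, and in the rest of glycolysis and its branches 0 of 23. After anti-PD1 the counts at an unadjusted p under 0.05 were 2 higher in the first of these lists, and 2 higher and 1 lower in the second. DESeq2 called 2 higher in the first, and 1 higher and 1 lower in the second. Of the 30 further targets edgeR counted 9 higher after anti-B7-H3 and 8 after anti-PD1 at an unadjusted p under 0.05, and DESeq2 called 3 and 7. The shares over all genes are those given with the enzymes and with the overview. The median log2 fold changes after anti-PD1 were 0.37, -0.05 and -0.09 for the further targets, the subunits and regulators, and the rest of glycolysis.

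Pkm makes 2 forms of pyruvate kinase by using either of 2 exons of equal length in turn. The exon of M1, a constantly active form, and that of M2, a form typical of growing cells and of leukocytes, are printed with the bases that differ in capitals, since reads over these bases tell the forms apart.
Pkm M1 exon, chr9:59675029-59675195, plus strand: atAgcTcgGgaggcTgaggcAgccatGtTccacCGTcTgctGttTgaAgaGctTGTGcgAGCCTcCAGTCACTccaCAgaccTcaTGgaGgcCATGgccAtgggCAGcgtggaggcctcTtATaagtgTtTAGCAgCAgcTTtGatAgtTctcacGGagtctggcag
Pkm M2 exon, chr9:59675568-59675734, plus strand: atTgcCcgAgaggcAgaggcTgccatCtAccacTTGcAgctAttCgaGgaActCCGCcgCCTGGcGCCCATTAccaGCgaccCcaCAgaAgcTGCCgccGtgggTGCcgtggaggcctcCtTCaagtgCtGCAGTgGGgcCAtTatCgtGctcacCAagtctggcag
The exons, each of 167 bases in GENCODE M21 on GRCm38, had 103 bases in common position by position, or 61.7%. The M2 transcript took 91.9 to 95.6% of the estimated counts of Pkm in every library. The M1 transcript took 3.35, 2.20 and 2.55% in IgG, 4.39, 5.49 and 4.93% in anti-B7-H3 and 5.24, 4.45 and 2.44% in anti-PD1. Anti-B7-H3 lay above IgG without overlap, at the smallest p that 3 against 3 libraries allow (exact two-sided permutation p = 0.1), and anti-PD1 overlapped IgG (exact two-sided permutation p = 0.3). Over the 18 comparisons of transcript shares, 9 forms in both treatments, the adjusted p of the former was 0.6. By TPM the M2 share was 51.55 to 64.1%, and the M1 share was 1.21 to 1.88% in IgG, 2.67 to 3.65% in anti-B7-H3 and 1.49 to 3.502% in anti-PD1, in the same arrangement.

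Vegfa is spliced into forms named for their length in amino acids, which differ in how tightly they hold to the matrix. The partly bound form is the transcript Vegfa-212, where 212 is the transcript's number in the annotation and not a length in amino acids. It took 60.2 to 90.8% of the estimated counts of Vegfa, and the freely diffusing form of 120 amino acids took 7.34 to 39.4%. By TPM, which corrects for the length of each transcript, the shares were 47.7 to 76.3% and 22.3 to 49.6%. The share of the form of 120 overlapped between groups (exact two-sided permutation p = 0.6 for anti-B7-H3 and 0.9 for anti-PD1), and leaving out 1 library could turn its direction. In IgG it rested on 20.3 to 89.7 estimated counts a library. For Hif1a, the transcript Hif1a-201 took 65.5 to 80.8% of the counts and Hif1a-202 took 13.6 to 27.3%, both with overlap between groups. Hif1a-203 took 5.66 to 7.83% in IgG and 2.59 to 4.74% in anti-PD1 (exact two-sided permutation p = 0.1, adjusted p = 0.6). By TPM it took 18.8 to 25.1% in IgG and 9.73 to 15.9% in anti-PD1.

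Markers of myeloid cells and immediate-early genes were higher in the same libraries as Vegfa. Of 10 macrophage markers 7 were called higher after each antibody, and of 7 tested neutrophil markers 3 were called higher after anti-B7-H3 and 4 after anti-PD1. The summed neutrophil level was 79.4 to 122 CPM in IgG, 271 to 483 in anti-B7-H3 and 647 to 930.0 in anti-PD1. Summed immediate-early genes, which tissue dissociation can raise, ran from 3996 to 4849 CPM in IgG, from 8806 to 9058 in anti-B7-H3 and from 8748 to 10339 in anti-PD1. Of 8 immediate-early genes, 3 were called higher after anti-B7-H3 and 4 after anti-PD1. The order of the groups for Vegfa, Slc16a3 and Egln3 was that of the neutrophil sum, and within groups the order of the libraries was mixed. In IgG the neutrophil sum had the order of Egln3, and in anti-B7-H3 it was highest in anti-B7-H3 3, with the most Vegfa and Egln3. The neutrophil sum was highest in anti-PD1 2, the library with the least Vegfa, Slc16a3 and Egln3 of its group, and the macrophage sum was highest in anti-B7-H3 1, the library with the least of all 3 genes in its group. Fibroblast markers summed to 0.495 to 1.45 CPM in IgG and to 8.42 to 29.7 CPM in the treated libraries. The part of these cells and of dissociation in the levels of the 38 genes was not tested.

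**Figure D5:**
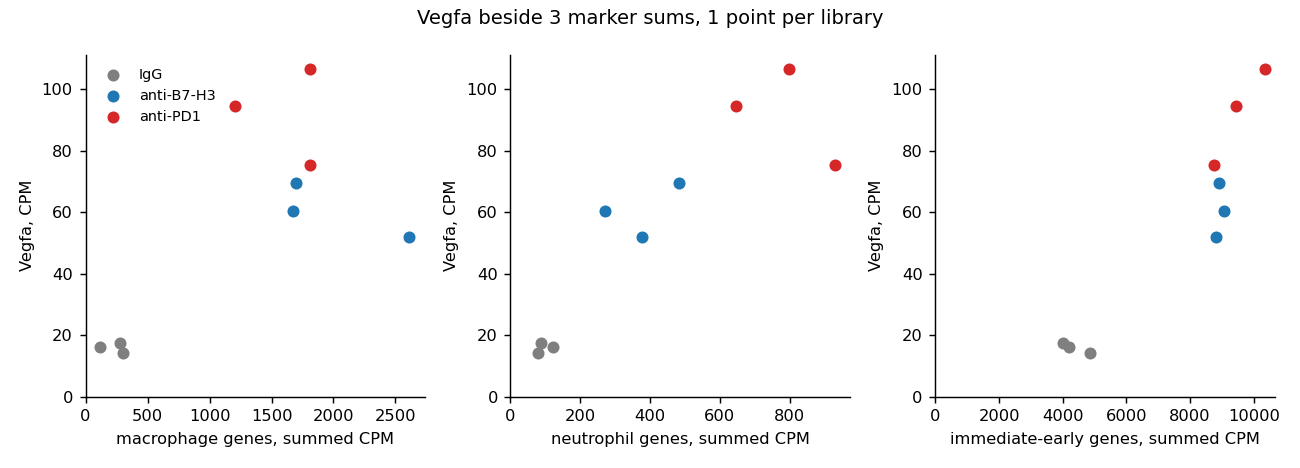
The CPM of Vegfa (vertical axis) is plotted against the summed CPM of macrophage, neutrophil and immediate-early genes (horizontal axes), with 1 point per library coloured by group. IgG sits apart at the lower left in each panel, and within the treated libraries the one with the highest macrophage sum, 2613 CPM, has the lowest Vegfa, 52.1 CPM.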

How the data were processed

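RNA was sequenced from 9 libraries of CD45+ cells, prepared per the labels' protocols with SMART-Seq v4 from RNA of integrity 7.0 or more, ribosomal RNA depletion and Nextera XT, which keep no strand: antisense and overlapping genes are not resolved. Per the submitters' processing notes the build was GRCm38 and FastQC 0.11.8 was used; the name of the quantifier was not given in the sources used here. Every file, as deposited, holds per the file headers the estimated counts and TPM for 58083 transcripts, not pooled and with mostly coding lengths.

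Estimated counts were summed per gene with GENCODE M21 (57409 transcripts matched, 674 left out) and rounded. A single edgeR 4.0.16 fit (R 4.3.3) used all 9 libraries, TMM factors, filterByExpr, robust quasi-likelihood dispersions and no covariate, with Benjamini-Hochberg adjustment over 13178 genes, and was tested on simulated data. TPM served for comparisons between genes. DESeq2 1.42.0 and the other settings appear in the closing section. Counting precision is limited by PCR without molecular identifiers.

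The members, lists, tests and settings were chosen with earlier results of these data known. Described with every library's value were members past the test in any comparison, members of at least 5 CPM whose treated libraries did not overlap IgG, and the 5 enzymes with the highest TPM. Hif1a falls outside this rule and was added after its values were seen. The counts of genes without overlap under other scalings were added after seeing the data.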

Additional observations from a re-analysis of the deposited data

How the results depend on the processing

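Besides the 18 settings chosen with the design (DESeq2, edgeR with DESeq2's or upper-quartile factors, no filter, a filter of 5 CPM in 3 libraries, a reduced table with no mitochondrial, ribosomal, haemoglobin or antigen receptor genes, only the 6 libraries compared, a replicate block, each of 9 libraries left out, and IgG 2 with anti-PD1 3 left out), other scalings of the no-overlap counts were added after seeing the data. The count of genes called after anti-B7-H3 was 2 in place of 1 under DESeq2, upper-quartile factors, the 5 CPM filter and the reduced table, and 1 under all others. Over all tested genes the main fit called 112 for this comparison, DESeq2 396 and the other settings 44 to 144. After anti-PD1 it was 8 under DESeq2, 3 without IgG 2 and anti-PD1 3, and 2 to 6 with 1 library left out. It fell to 3 without IgG 2, IgG 3, anti-B7-H3 2, anti-PD1 2 or anti-PD1 3 and to 2 without anti-PD1 1. With the replicate block it was 2. Over all tested genes the calls for anti-PD1 numbered 229 in the main fit, 652 under DESeq2 and 113 to 262 with 1 library left out. They numbered 234 without IgG 2 and anti-PD1 3, and 127 with the replicate block. Same-numbered libraries did not deviate together (correlations -0.12 to 0.156, 1 of 9 pairs over 0.1), so the numbers were not taken as pairs. The causes were not tested.

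Directions were followed for some transcript shares and for genes past the test or, at 5 CPM or more, without overlap with IgG. They turned only in values that were not called. The other members, some with fold changes near 0, were not followed in this way. With 1 library left out, Aldoa after anti-B7-H3 ran from -0.053 to 0.14 (-0.033 without IgG 2 and anti-PD1 3), Ankrd37 from -0.30 to 0.0686 (0.0499 without both), Pfkfb4 after anti-PD1 from -0.62 to 0.80 (-0.008 with the replicate block) and Bnip3l from -0.28 to 0.13, all log2. The difference in share ran from -3.51 to 3.07 percentage points for Hif1a-202 after anti-PD1, and for the Vegfa form of 120 from -0.681 to 12.7 after anti-B7-H3 and -4.21 to 9.17 after anti-PD1. The 18 genes with anti-PD1 above IgG became 13 to 24 over the other scalings and left-out libraries. The 13 were on TPM, beside 7.96% of all tested genes, and the 24 without anti-PD1 2, beside 13.2%. Without IgG 2 and anti-PD1 3 there were 20, beside 20.4%. The 7 with anti-B7-H3 above IgG became 7 to 19 with 1 library left out, beside 12.6 to 19.0% of all tested genes. They were 19 without anti-B7-H3 1 and 11 without IgG 1. On TPM and on CPM without TMM factors they were 5, beside 6.79% and 8.12%. The 16 below anti-PD1 became 16 to 19 with 1 library left out, beside 9.57 to 11.3% of all tested genes, and 8 on TPM, beside 3.53%. At 3 libraries a group, changes under about those called, and genes near 0, are below what these data resolve.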
